A study of Mus musculus with 6 samples.

Results

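The 10 desmosome and plakin genes described here are Dsp, Ppl and Evpl of the plakin family, the armadillo-repeat genes Jup, Pkp1, Pkp2, Pkp3 and Pkp4, and the desmosomal cadherin genes Dsc2 and Dsg2. Every probe set that the platform annotation gives to one of these symbols and to no other gene was taken, which gave 23 of the 45101 probe sets on the array, and 10 of 18193 genes. RNA was measured on Affymetrix mouse arrays in cultured hepatic stellate cells, liver pericytes that store vitamin A and become matrix-producing myofibroblasts after injury. All 6 samples came from cells on a C57Bl/6 background that carried the transgenes CMV-rtTA;TRE-GFP-shRNA.p53.1224. In this system a doxycycline-dependent activator, written in the labels behind the CMV promoter, which is not specific to stellate cells, switches on a green fluorescent marker and a hairpin against p53. For the proliferating group, 3 arrays, the labels give doxycycline at 1 ug/ml and knockdown of p53. For the senescent group, also 3 arrays, they give the same transgenes, control treatment and expression of p53. The labels leave unsaid whether the replicates were separate animals or cultures, and p-values therefore cover the spread between these arrays, which could be technical.

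Desmosomes are spot-like junctions that tie the intermediate filaments of neighbouring cells together. Desmogleins and desmocollins, the desmosomal cadherins, bridge the gap between the cells. Plakoglobin, encoded by Jup, and the plakophilins bind their tails, and desmoplakin, encoded by Dsp, links that plaque to keratin, desmin or vimentin filaments. Periplakin and envoplakin, encoded by Ppl and Evpl, are relatives of desmoplakin that also serve as scaffold of the cornified envelope in skin. In the liver desmosomes are known from hepatocytes, bile duct cells and the mesothelium, while fibroblast-like cells rely mainly on adherens junctions.

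The authors' RMA values are on the log2 scale, and array medians lay between 6.15 and 6.19. Background was set at 5.57, below which 95% of the 44 probe sets for olfactory receptors had their mean. The poly-A spike-ins are bacterial RNAs that are put into each sample before it is labelled. They differed by 0.60 ± 0.17 (log2, SE, n = 3 per group), higher in the senescent group, with an exact two-sided permutation p of 0.1, the smallest possible for 3 against 3. Scaling the arrays to these spike-ins moved the median change of all genes to -0.60, so all changes below are relative to the bulk of genes on the array. Of 13 measured stellate cell and myofibroblast markers, 11 lay above background, with Acta2 (smooth muscle actin) at 14.30 to 14.59 and Des (desmin) at 6.88 to 7.16. One of the 13 rose (Timp1, 1.7-fold) and 4 fell (Pdgfrb 2.46-fold, Col3a1 1.9-fold, Col1a1 1.48-fold and Col1a2 1.41-fold). Their summed log2 level was 142.8 to 143.6 on the proliferating and 141.1 to 141.5 on the senescent arrays, without overlap. The stellate cell genes Lrat and Reln lay below background on all 6 arrays. Mesothelial markers lay above background for 11 of 11 genes, among them Upk1b at 12.87 to 13.34 and Msln at 10.63 to 11.64, and 4 of them rose and 4 fell (limma, adjusted p under 0.05). Those that rose were Krt18 (2.96-fold), Msln (1.73-fold), Krt19 (1.5-fold) and Upk1b (1.35-fold). Those that fell were Lrrn4 (3.47-fold), Wt1 (2.16-fold), Gpm6a (1.49-fold) and Bnc1 (1.46-fold). The summed log2 level of the 11 mesothelial markers was 112.4 to 114.1 on the proliferating and 111.7 to 112.3 on the senescent arrays, also without overlap. Of the biliary markers 5 of 7 lay above background (summed level 51.2 to 52.8 and 50.6 to 50.8, without overlap). Of the keratinocyte markers 2 of 6 did so (33.7 to 34.2 and 33.9), and of the hepatocyte markers 3 of 7 (35.9 to 38 and 35.9 to 37.9). Below background on all 6 arrays were Cldn4 and Cftr of the biliary list, Trp63, Krt15, Dsc3 and Col17a1 of the keratinocyte list, and Alb, Apoc3, Cyp2e1 and Cps1 of the hepatocyte list. Endothelial markers lay above background for 1 of 7 genes (summed level 36.4 to 37.8 and 37.3 to 37.7), with Pecam1, Tek, Stab2 and Lyve1 below it on all arrays. Macrophage markers did so for 4 of 6 (33.9 to 34.8 and 35.1 to 35.3, higher in senescent cells without overlap), with Adgre1 and Ptprc below it on all arrays. Of these markers Csf1r rose 1.27-fold in its brightest probe set (limma adjusted p = 0.0129), and the other 5 did not pass. The counts of markers called are to be read against all genes, of which 9.49% passed as higher and 10.5% as lower. Among all single genes the groups did not overlap for 37.0%, and no such share was computed for summed levels. The part of the cell types above in the results below was not tested. In bulk RNA fewer cells of a type and less RNA per cell cannot be told apart.

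The single comparison set senescent against proliferating cells and asks which components of the desmosomal plaque differ in RNA level between cells with these labels. Doxycycline, the transgenes it switches on, p53 and growth state change together between the groups, so their parts cannot be told apart. Dsp and Pkp1 rose in senescent cells, both 1.57-fold, while Ppl fell 1.53-fold. The other 7 genes did not pass the threshold, an adjusted p of 0.05 in a limma fit of 18193 genes. Of all genes 20.0% passed, 9.49% as higher and 10.5% as lower, and the 2 higher and 1 lower of 10 members are to be read against that. The groups did not overlap for 5 of the 10 genes, against 37.0% of all genes. The median change of the 10 genes was 0.08 (log2), beside -0.002 over all genes. Higher genes made up 47.4% of all calls, and 63.2% when each array was centred on genes of middle level, where 3 members rose and 1 fell, beside 12.6% and 7.35% of all genes. On the scale of the poly-A spike-ins 0 of the 10 genes rose and 7 fell, beside 0.962% and 83.2% of all genes, so the count of members is no larger than that of the array as a whole. Among the 23 probe sets, 4 rose and 1 fell in a fit over 45037 probe sets, of which 5.99% rose and 6.39% fell. The groups did not overlap for 7 of the 23, against 31.0% of all probe sets. Of these 23, 12 lay above background on all 6 arrays and 11 below it on all 6.

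**Figure D1:**
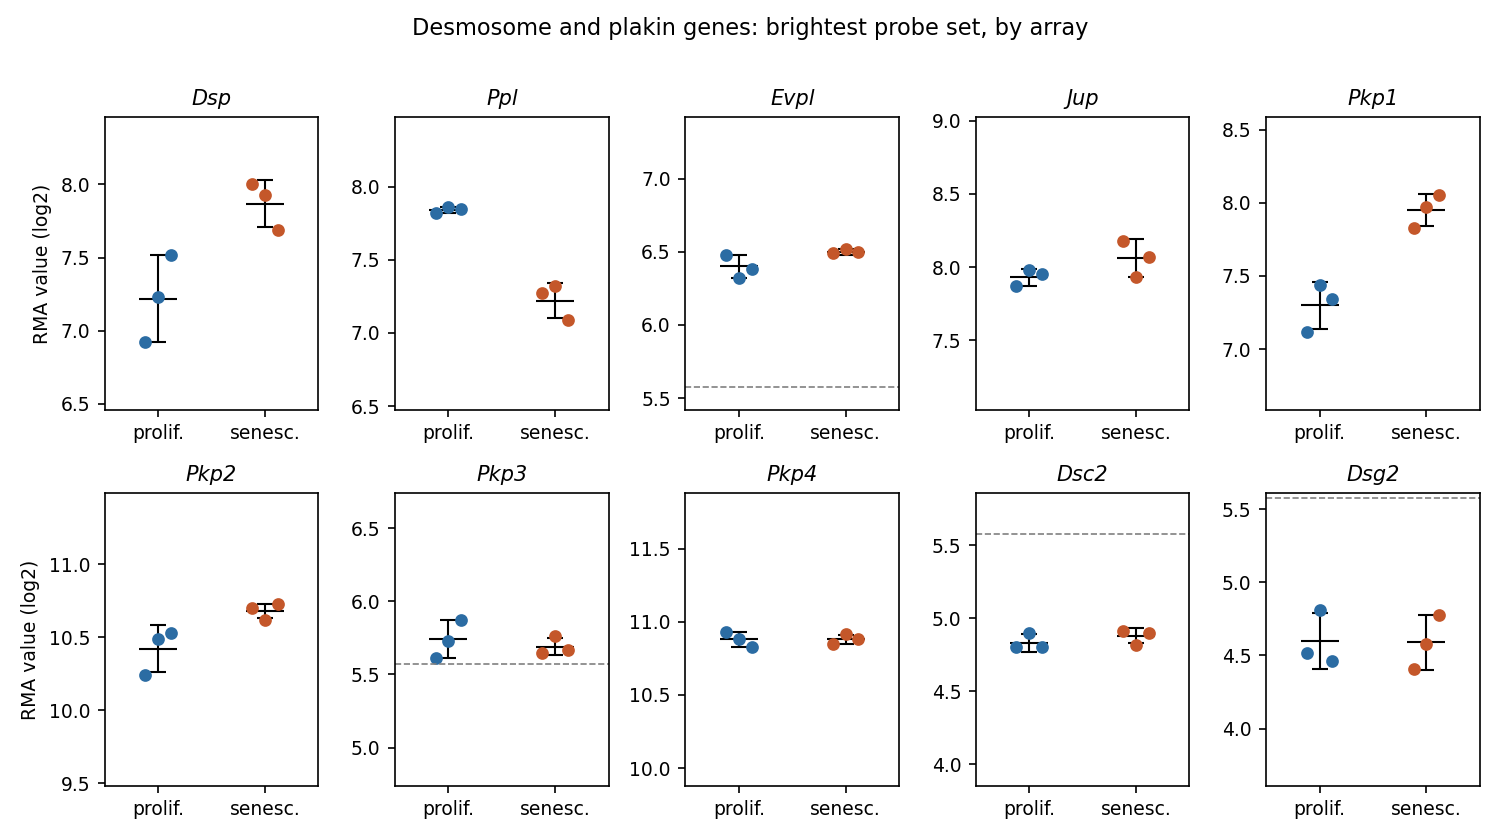
RMA values (log2) of the 10 genes in the 3 proliferating (blue) and 3 senescent (orange) arrays, 1 panel per gene, read from the probe set with the highest mean; bars are the mean ± SD (n = 3), the dashed line is the background level of 5.57 where it falls in the panel, and each panel has its own axis range. The groups stand apart for Dsp, Pkp1, Pkp2, Ppl and Evpl, and the points of Dsc2 and Dsg2 lie below the background line.

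Dsp (Entrez gene 109620) encodes desmoplakin, the plakin that anchors filaments to the desmosome. Its brightest probe set read 6.92, 7.23 and 7.52 on the proliferating arrays and 8.0, 7.93 and 7.69 on the senescent arrays. The lowest senescent array lay above the highest proliferating array, by a gap smaller than the spread within the proliferating group. The mean went from 7.22 ± 0.30 to 7.87 ± 0.16 (SD, n = 3), a log2 change of 0.65 ± 0.15 (SE, limma adjusted p = 0.018). A second probe set read 6.79, 7.02 and 7.28 against 7.65, 7.62 and 7.51, and it rose by 0.56 ± 0.12 (limma over probe sets, adjusted p = 0.0227). The annotation gives both the same source sequence, so the second is no independent measure of the gene. The third lay below background on every array, at 3.46 to 3.83, and had a change of -0.02 ± 0.11. The call of the gene ended without senescent replicate 1 (0.59, limma adjusted p = 0.0688) and without senescent replicate 2 (0.62, limma adjusted p = 0.0716). With the mean over its 3 probe sets the change was 0.40 (limma adjusted p = 0.0435). In the fit over probe sets both calls also depended on single arrays. The brightest probe set lost its call without proliferating replicate 1 or 2 or senescent replicate 1 or 2 (changes of 0.50 to 0.65), and the second without proliferating replicate 2 or senescent replicate 1, 2 or 3 (0.53 to 0.60). Scaled to the poly-A spike-ins the change of the gene was 0.055 (limma adjusted p = 0.792) and that of the second probe set -0.04.

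Promoter sequence from RefSeq (GRCm38.p6) was at hand for 3 of the 10 genes, namely Dsp, Jup and Pkp4, the last with 2 starts, and was not used here for Pkp1, Pkp2, Pkp3, Dsc2, Dsg2, Ppl and Evpl. The promoters of Dsp, which rose, and of Jup, its plaque partner that was not called, are shown to set the letters before both starts side by side. Each runs 5′ to 3′ on the gene's strand from 250 bases before the start through the first 30 transcribed bases, and covers promoter and first exon. Dsp lies on the plus strand at chr13:38151044-38151323 and Jup on the minus strand at chr11:100397761-100398040. Capitals mark matches on either strand to the GC box GGGCGG, the E-box CANNTG and the p53 half-site.
Dsp: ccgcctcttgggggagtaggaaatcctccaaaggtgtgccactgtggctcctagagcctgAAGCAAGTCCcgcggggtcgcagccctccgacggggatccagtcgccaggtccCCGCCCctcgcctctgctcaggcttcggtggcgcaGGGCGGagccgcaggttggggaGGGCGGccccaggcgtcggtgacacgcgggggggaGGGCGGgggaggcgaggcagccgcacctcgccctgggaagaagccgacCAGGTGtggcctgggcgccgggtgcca
Jup: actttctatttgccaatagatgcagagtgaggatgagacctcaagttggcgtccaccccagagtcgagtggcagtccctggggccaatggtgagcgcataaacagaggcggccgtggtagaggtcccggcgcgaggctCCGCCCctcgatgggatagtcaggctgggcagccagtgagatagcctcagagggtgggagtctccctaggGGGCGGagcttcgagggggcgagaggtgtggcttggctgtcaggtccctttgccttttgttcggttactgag
The Dsp window held 4 GC boxes, first bases 137, 102, 80 and 45 bases before the start, 1 p53 half-site beginning 190 bases before it, and 1 E-box, CAGGTG, beginning 3 bases after the first transcribed base. The Jup window held 2 GC boxes, 112 and 42 bases before the start, and no match to the E-box or the half-site. Pkp4, also not called, held GC boxes in the window of its first start. The window of its second start held E-boxes, among them CAGGTG beginning 47 bases before that start. Neither Pkp4 window matched the half-site. Of 32851 RefSeq promoters cut to the same 280 bases, 34.7% held a GC box, 70.1% an E-box, 19.1% the E-box subset CACCTG or CAGGTG, and 7.8% the p53 half-site. The AP-1 site TGANTCA matched in none of the 4 windows of Dsp, Jup and Pkp4, and in 7.5% of all promoters. The Grainyhead-type site AACNGGTT, searched on the gene's strand only, also matched in none of the 4 windows, and in 1.1% of all promoters. Bases G and C made up 72.9% of the Dsp and 60.7% of the Jup window. These matches describe letters and show no binding.

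Ppl (Entrez gene 19041) encodes periplakin, a cytolinker between the plasma membrane and intermediate filaments. Its only probe set read 7.82, 7.86 and 7.85 on the proliferating arrays and 7.27, 7.32 and 7.09 on the senescent arrays. Every senescent array lay below every proliferating array by far more than the proliferating arrays differed from one another. The mean went from 7.84 ± 0.02 to 7.22 ± 0.12 (SD, n = 3), and the gene fell by 0.62 ± 0.08 (log2, SE, limma adjusted p = 0.00127). Its partner in the cornified envelope, envoplakin, is encoded by Evpl (Entrez gene 14027). Evpl read 6.48, 6.32 and 6.38 against 6.49, 6.52 and 6.50, groups that did not overlap but nearly touched. Its change was 0.11 ± 0.07 (limma adjusted p = 0.36), with a 95% confidence interval of -0.05 to 0.27.

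Among the plakophilins, armadillo proteins that gather desmoplakin at the junction, Pkp1 (Entrez gene 18772) rose. Plakophilin 1 is best known from the upper layers of the epidermis. Its 1 probe set read 7.12, 7.44 and 7.34 on the proliferating arrays and 7.83, 7.97 and 8.05 on the senescent arrays. The groups did not overlap, and the means were 7.30 ± 0.16 and 7.95 ± 0.11 (SD, n = 3). The log2 change was 0.65 ± 0.10 (SE, limma adjusted p = 0.00294). The call held with any 1 array left out, while scaled to the poly-A spike-ins the change was 0.057 (limma adjusted p = 0.784).

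Pkp2 (Entrez gene 67451) encodes the plakophilin that is most widely expressed and is the main one of heart muscle. Its 4 probe sets differed. The brightest read 10.24, 10.49 and 10.53 against 10.70, 10.62 and 10.73, a change of 0.27 ± 0.09 (limma adjusted p = 0.0799). A second read 9.55, 9.64 and 9.73 against 10.29, 9.96 and 10.04 and rose by 0.46 ± 0.10 (limma over probe sets, adjusted p = 0.0266). Neither of these overlapped between groups. The third read 6.27 to 6.83 over all arrays with a change of -0.09 ± 0.15, and the fourth lay below background throughout. The brightest probe set passed when arrays were centred on genes of middle level (0.33, limma adjusted p = 0.0466), with a robust variance trend (0.27, adjusted p = 0.035) and when genes under the median level were left out (adjusted p = 0.035). Scaled to the poly-A spike-ins it was -0.33 (limma adjusted p = 0.108). The call of the second probe set ended without proliferating replicate 1, 2 or 3 or senescent replicate 1 or 3, with changes of 0.36 to 0.50.

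Pkp3 (Entrez gene 56460), which encodes the plakophilin of simple and stratified epithelia, lay just above background. Its brighter probe set read 5.61, 5.73 and 5.87 against 5.65, 5.76 and 5.67, and the groups overlapped. The change was -0.04 ± 0.08 with a 95% confidence interval of -0.23 to 0.15. The other probe set lay below background on all arrays. Pkp4 (Entrez gene 227937), a relative of p120-catenin also found at adherens junctions, read 10.93, 10.88 and 10.83 on the proliferating and 10.85, 10.92 and 10.88 on the senescent arrays. The groups overlapped, and the change of 0.00 ± 0.07 had a 95% confidence interval of -0.15 to 0.16. Its other probe set gave an interval of -0.23 to 0.23.

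Jup (Entrez gene 16480) encodes plakoglobin, the catenin shared by desmosomes and adherens junctions. It read 7.87, 7.98 and 7.95 against 8.18, 7.93 and 8.07, and the groups overlapped in 1 senescent array. The change was 0.13 ± 0.08 (limma adjusted p = 0.346), with a 95% confidence interval of -0.06 to 0.32. The probe sets read for Jup, Dsp and Pkp2 carry the suffix _s_at, a type that can bind several transcripts.

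**Figure D2:**
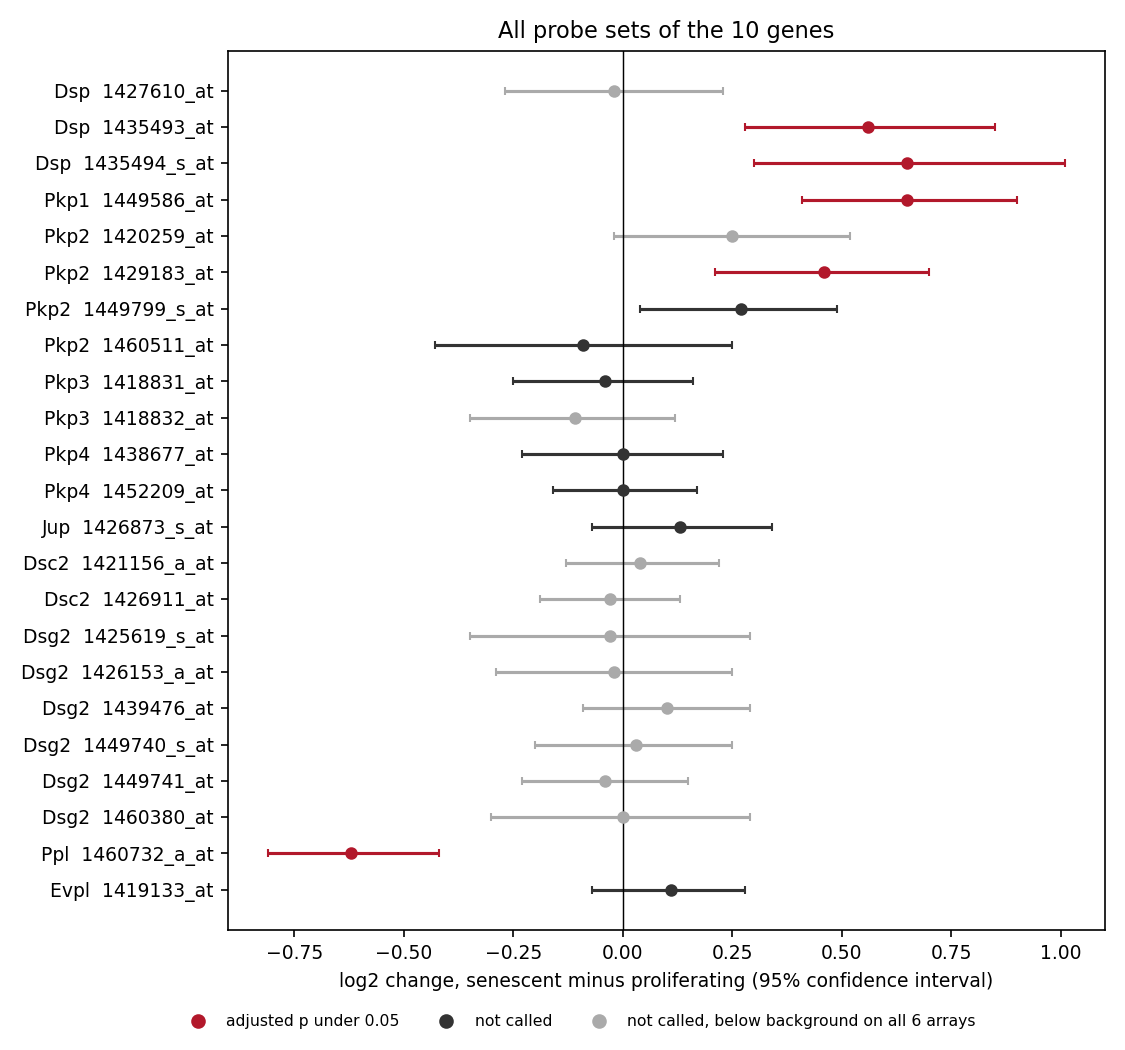
Log2 change from proliferating to senescent cells for each of the 23 probe sets (points) with its 95% confidence interval (bars), from the limma fit over 45037 probe sets; red marks an adjusted p under 0.05 and grey a probe set below background on all 6 arrays. Dsp has 2 red probe sets and Pkp2 has 1 among its 4, Ppl stands alone on the left, and the 8 grey probe sets of Dsc2 and Dsg2 lie around 0.

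The desmosomal cadherin genes read below background on every array. Dsg2 (Entrez gene 13511), which encodes the desmoglein of simple epithelia and heart, has 6 probe sets, with values of 3.47 to 4.81 over all arrays. Its brightest read 4.52, 4.81 and 4.46 against 4.41, 4.58 and 4.78, overlapping groups with a change of -0.005 ± 0.12. Dsc2 (Entrez gene 13506), its desmocollin counterpart, read 4.80, 4.90 and 4.80 against 4.91, 4.82 and 4.90 in the brighter of its 2 probe sets and 3.12 to 3.19 in the other. The change of the brighter was 0.04 ± 0.07. No fold is given for either gene, since both groups lay below background, and such values show no more than that these probe sets gave no signal above that level. The other measured cadherins of the desmosome, Dsg1a, Dsg1b, Dsc1 and Dsc3, likewise lay below background on all 6 arrays, at 3.07 to 5.08. None of these 6 cadherin genes passed the test (limma).

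The lists that follow are other genes of the same structures, and their counts are to be read against the 9.49% of all genes that rose and the 10.5% that fell. Some genes stand in more than one list. Of the other desmosome genes 5 of 8 were measured, and 1 rose and 0 fell. It was Perp, a membrane protein of desmosomes and a target of p53, which read 7.80, 8.11 and 8.42 on the proliferating and 10.82, 10.85 and 10.79 on the senescent arrays. Its change of 2.71 ± 0.14 (SE, limma adjusted p = 2.81e-05) was 6.54-fold, and the groups lay far apart.

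Of the 4 other plakins, large cytolinkers that bind intermediate filaments, actin or microtubules, 3 rose and 0 fell, with a median change of 0.39. Plec, which encodes plectin, rose 1.37-fold (0.45 ± 0.07, limma adjusted p = 0.00348). It read 12.71, 12.77 and 12.80 against 13.17, 13.17 and 13.31, and 2 of its 3 probe sets rose. Dst, which encodes dystonin, rose 1.43-fold (0.52 ± 0.09, limma adjusted p = 0.00395), as did all 4 of its probe sets, the brightest reading 11.51, 11.33 and 11.32 against 11.87, 11.83 and 12.01. Macf1, a linker of actin and microtubules, rose 1.26-fold (0.33 ± 0.08, limma adjusted p = 0.0205) in 1 of its 3 probe sets. Its call ended without proliferating replicate 1 or 3 or senescent replicate 2 or 3 (0.30, 0.35, 0.35 and 0.27) and with the mean over its probe sets (0.09, limma adjusted p = 0.403). Eppk1, epiplakin, had a change of 0.03. All 3 called plakins had values below 0 when scaled to the poly-A spike-ins (Plec -0.14, Dst -0.08, Macf1 -0.26), without passing the test.

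**Figure D3:**
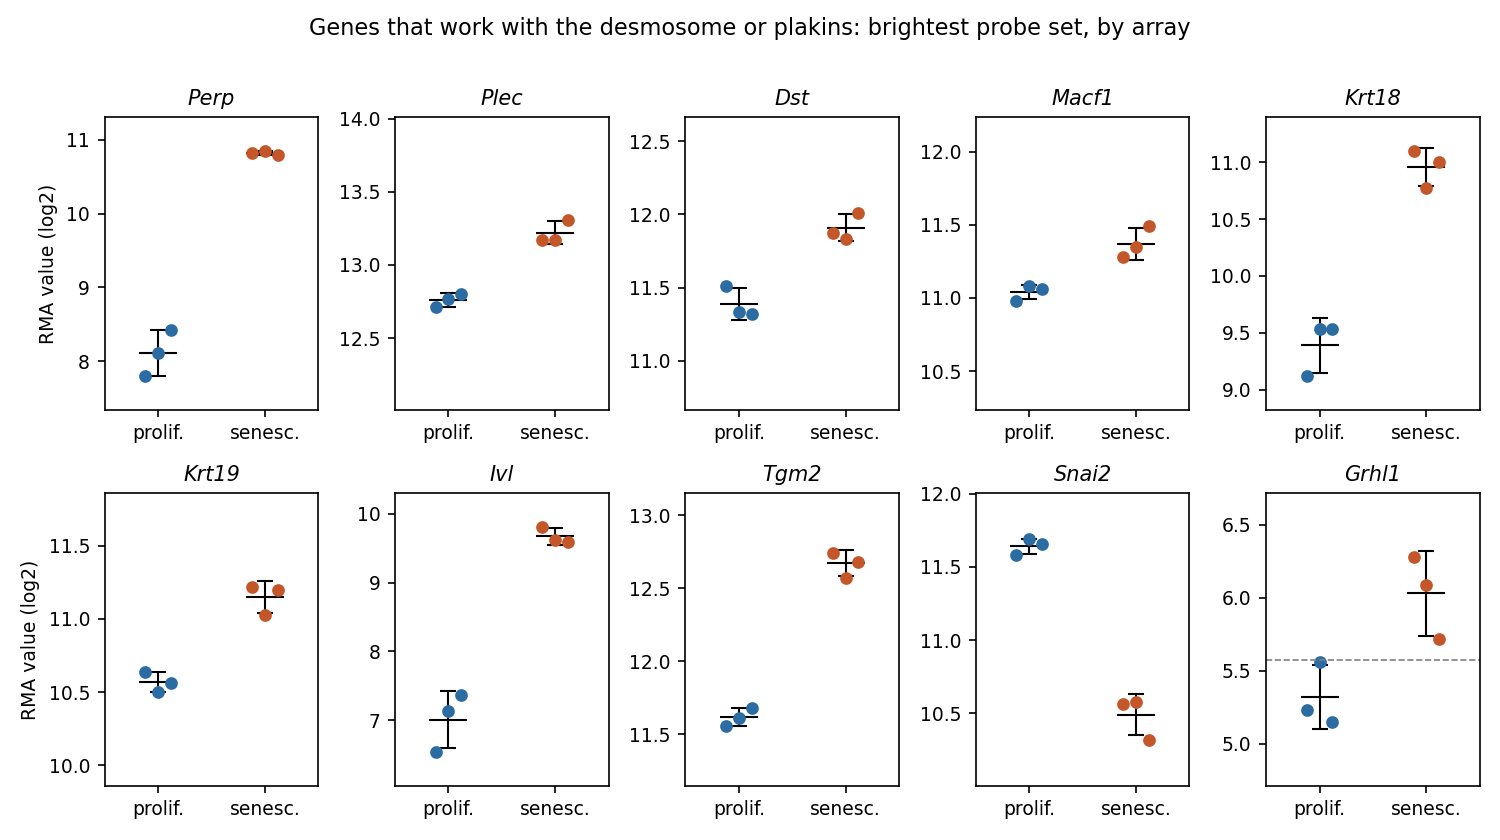
RMA values (log2) of 10 genes that work with desmosomes or plakins or are transcription factors of epithelial state, in the 3 proliferating (blue) and 3 senescent (orange) arrays; bars are the mean ± SD (n = 3), the dashed line in the Grhl1 panel is the background level, and each panel has its own axis range. The groups stand apart in each panel, with Snai2 lower and the other 9 genes higher in senescent cells. All 10 had passed the test (limma, adjusted p under 0.05), so the gap between groups is no separate result. Krt7, Lor and Twist2, which fell, and Nes, Krt20, Klf4, Klf5 and Ovol2, which passed as higher, are not drawn. The genes of these lists that did not pass are not drawn either.

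Of 17 intermediate filament partners 4 passed as higher, 1 passed as lower and 12 did not pass, with a median of 0.11. One of the 4, Krt20, lay below background on all 6 arrays, and no change is given for it. Krt18, a keratin of simple epithelia and the mesothelium, rose 2.96-fold, from 9.39 ± 0.24 to 10.96 ± 0.17 (SD, n = 3), and Krt19 rose 1.5-fold. Nes, the filament gene nestin, rose 1.48-fold, and Krt7 was 1.61-fold lower. The keratin 18 partner Krt8 had a change of 0.11 (limma adjusted p = 0.502), Vim, vimentin, 0.10 and Des 0.14. Krt18 and Krt19 are also mesothelial markers, whose values are given above. On the poly-A scale Krt18 kept its rise and the changes of Krt19 (-0.01) and Nes (-0.03) turned below 0.

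Of 11 measured cornified envelope partners of the plakins 2 rose and 1 fell. Ivl, which encodes involucrin, a substrate that is cross-linked onto periplakin and envoplakin, read 6.54, 7.13 and 7.37 against 9.81, 9.62 and 9.59, a 6.31-fold rise. Tgm2, tissue transglutaminase, rose 2.07-fold, and 5 of its 6 probe sets passed. The epidermal cross-linking enzyme genes Tgm1, Tgm3 and Tgm5 did not pass. Tgm3 had a change of -0.01. Tgm5 lay below background on all 6 arrays and Tgm1 had both group means below it (5.49 and 5.51), and no change is given for them. Lor, loricrin, fell by 0.39 (limma adjusted p = 0.0292). Its call ended without proliferating replicate 1 or 2 (-0.34 and -0.34), without senescent replicate 1, 2 or 3 (-0.41, -0.34 and -0.41), and with centring on genes of middle level (-0.32, limma adjusted p = 0.0626).

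Hemidesmosome genes, which fasten cells to the matrix, include Plec and Dst. Of 8 measured 4 passed as higher and 0 as lower, with a median of 0.28, and 2 of the 4 are Plec and Dst, counted above. Itga6, integrin alpha 6, rose 2.98-fold in its brighter probe set, from 8.41 ± 0.49 to 9.99 ± 0.15 (SD, n = 3), and 3.23-fold in the other. Its partner Itgb4 had a change of 0.11 (limma adjusted p = 0.459), and Col17a1 lay below background on all arrays. Lamb3, a laminin chain of epithelial basement membranes, passed in the gene fit (limma adjusted p = 0.0333) but not in the fit over probe sets (0.0531). All its proliferating arrays, 1 senescent array and the senescent mean lay below background, and no fold is given. Its call ended without proliferating replicate 1 or 2 or senescent replicate 1 or 3 (limma adjusted p = 0.0894, 0.0726, 0.109 and 0.109).

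Of 22 adherens junction and armadillo genes 3 rose, 2 fell and 17 did not pass, with a median of 0.08, a share near the 20.0% of all genes called. The cadherin genes Cdh11 and Cdh3 were 1.83-fold and 1.41-fold lower, and Cdh13, an anchored cadherin without a cytoplasmic tail, was 2.13-fold higher. Cdh5, the endothelial cadherin, passed at 5.69 to 5.82 on the senescent arrays, just above background, at least 1.12-fold higher in its brighter probe set. Vcl, vinculin, rose by 0.23, a call that ended without proliferating replicate 1, 2 or 3 or senescent replicate 1 or 2 (0.22 to 0.24). Cdh2, Ctnnb1 and Ctnna1, the core of the mesenchymal adherens junction, had changes of 0.11, -0.14 and 0.07 and did not pass. Cdh1, the epithelial cadherin, read 9.56, 10.46 and 10.41 against 9.55, 9.62 and 9.52, with proliferating replicate 1 at the level of the senescent arrays (change -0.58, limma adjusted p = 0.0984). Of 18 tight junction genes 2 rose and 3 fell, led by Jam2, 2.56-fold higher in senescent cells with 5 of 5 probe sets called, and Cldn1, 4.96-fold lower in the brightest of its 4 probe sets. Another Cldn1 probe set was 2.06-fold lower, and the mean over the 4 had a change of -0.95. Cgnl1 rose 1.47-fold in 1 of its 5 probe sets, and Cldn15 and Cgn were 1.67-fold and 1.57-fold lower. Of 7 gap junction genes Gjb5 rose 1.58-fold and Gjc1 was 1.39-fold lower in the brighter of its 2 probe sets. The other Gjc1 probe set overlapped between groups, with a change of -0.27 (limma over probe sets, adjusted p = 0.24).

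Transcription factors of epithelial and mesenchymal state were read in the same way. Of 15 measured 4 passed as higher and 2 as lower, with a median of 0.16. Snai2, a repressor of epithelial junction genes, read 11.58, 11.69 and 11.66 against 10.56, 10.58 and 10.32, a 2.22-fold fall. Twist2 was 1.33-fold lower. Grhl1, a Grainyhead factor of the epidermis known to regulate desmosomal cadherins, was below background on the proliferating arrays and read 5.72 to 6.28 on the senescent arrays, at least 1.37-fold higher. Its call ended without senescent replicate 2 (limma adjusted p = 0.0615). Klf5 rose 1.46-fold in 1 of its 3 probe sets and Klf4 1.26-fold, a call that ended without proliferating replicate 3 (0.30, limma adjusted p = 0.062). Ovol2, the last of the 4, lay below background on all arrays, and no change is given for it. Zeb1, Zeb2, Snai1 and Twist1 did not pass, with changes of 0.07, -0.11, -0.09 and -0.13.

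**Figure D4:**
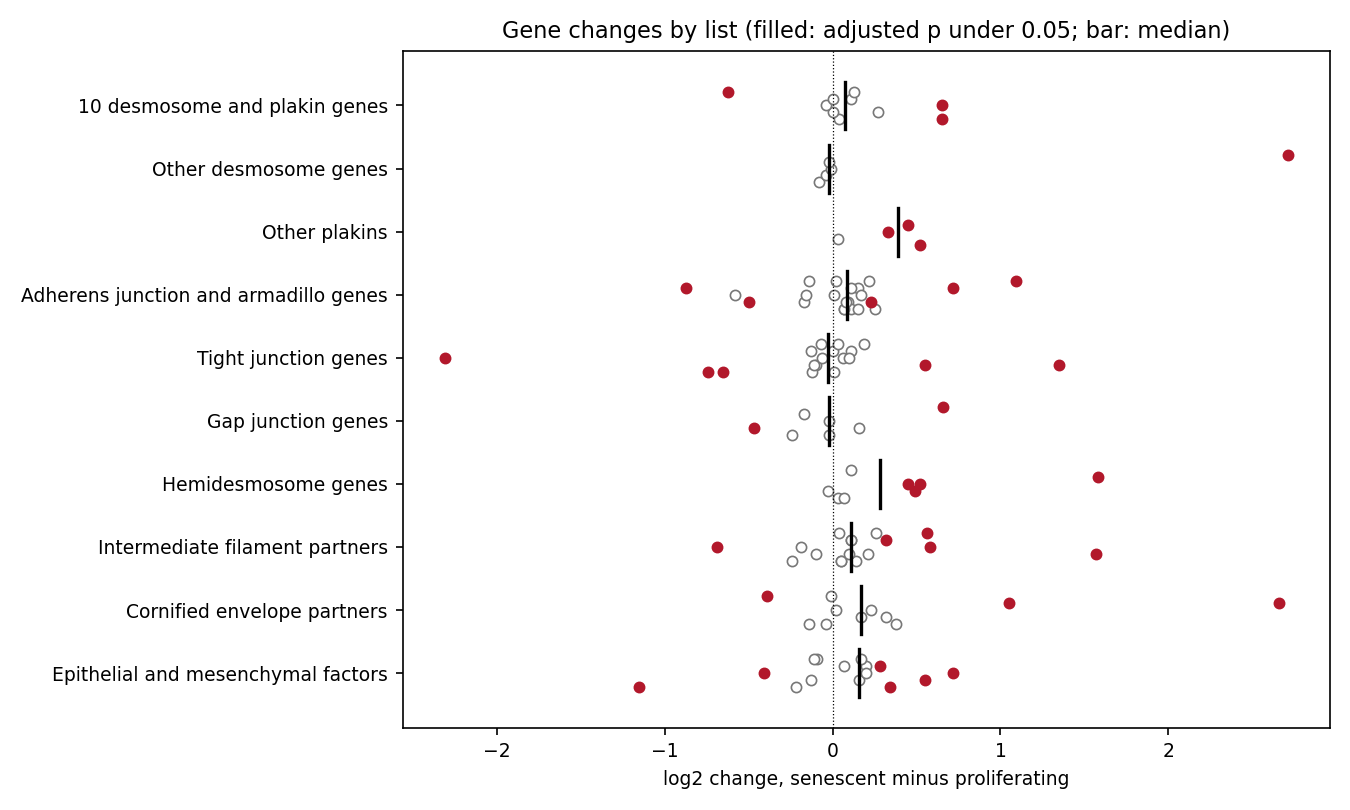
Log2 change from proliferating to senescent cells for each measured gene (points, brightest probe set), by list; filled points have an adjusted p under 0.05 and the bars are medians. The 10 desmosome and plakin genes hold 2 filled points to the right of 0 and 1 to the left. Perp is the far right point of the other desmosome genes. Of the 4 other plakins 3 are filled points to the right of 0, and Eppk1 is an open point at 0.03.

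Pkp1 was taken for a search of similar profiles because its absolute change, 0.654, was the largest of the members in the gene fit, next to 0.652 for Dsp. That order did not hold throughout. Dsp had the larger change without proliferating replicate 3 (0.80 against 0.67) and without senescent replicate 3 (0.74 against 0.60). Ppl had it without proliferating replicate 1 (-0.63), without senescent replicate 2 (-0.66) and on the poly-A scale (-1.21). Over the 6 arrays, after centring each gene on its own mean, the profiles nearest to Pkp1 were those of Dock5, Akap12, Mob3a, Bicd2 and Parm1, at Euclidean distances of 0.13 to 0.18 log2 units. Each was higher on every senescent array than on any proliferating array, with changes of 0.57 to 0.65. With 6 arrays in 2 groups, many genes share such a profile.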

How the data were processed

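Trizol-extracted RNA of 3 proliferating and 3 senescent cell samples was biotin-labelled and read on Affymetrix arrays, per the labels' protocols. The authors deposited 1 log2 value for each probe set and array, computed with RMA according to the submitters' processing notes. The RMA version and any filters are not given in the sources. RMA forces the arrays to one distribution, and sorted values differed between arrays by at most 0.123.

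Groups came from the sample titles. A platform table gave 34945 non-control probe sets 1 symbol, updated by Entrez number with RefSeq (GRCm38.p6, 34741 matched). Several symbols were given to 932, and 9160 had none. For a gene with several probe sets, the one with the highest mean over the 6 arrays was used. Senescent minus proliferating was fitted with limma 3.58.1 (lmFit, eBayes, R 4.3.3) over all genes, and separately over all 45037 non-control probe sets, with Benjamini-Hochberg adjustment and a threshold of 0.05. Residual and prior degrees of freedom were 4 and 4.22. The number of arrays limits the precision. Where all arrays of the dimmer group lay below background, the fold is a bound against it, and none is given where both group means did. In simulated data (18193 genes, senescent minus proliferating) limma found 79.1% of 67 genes changed by 0.5, 98.5% of 67 changed by 1 and 100% of 66 changed by 2, with 9 false calls among 194.

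The members and lists were chosen with earlier results of these data known. Named are all members, up to 3 called genes per direction and list by size, the 5 profiles nearest to the member with the largest change, and, chosen after their values were seen, further listed genes given with their values. Alternatives covered probe sets per gene, normalization, variance model, filters, background level, replicate block and each array left out. Figures used matplotlib 3.10.9.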

Additional observations from a re-analysis of the deposited data

How the results depend on the processing

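The calls of Pkp1 and Ppl held in every alternative but scaling to the poly-A spike-ins, where Pkp1 did not pass and Ppl still fell. That setting gave 0 member genes higher and 7 lower, 0 member probe sets higher and 17 lower, and a median member change of -0.521, since it subtracts 0.60 from every gene. Of all genes 83.2% were called lower there and of all probe sets 81.5%, and the counts of members restate that shift. Values turned there for Pkp2 (-0.331), Pkp4 (-0.594), Jup (-0.465), Dsc2 (-0.552) and Evpl (-0.49), for the second probe sets of Dsp (-0.036) and Pkp2 (-0.141), and for Dst (-0.08), Plec (-0.144), Macf1 (-0.262), Vcl (-0.363), Cgnl1 (-0.045), Lamb3 (-0.107), Krt19 (-0.013), Nes (-0.034), Klf5 (-0.051) and Klf4 (-0.26). With centring on genes of middle level 63.2% of all calls were higher, against 47.4%. That setting turned Pkp3 (0.027) and Dsg2 (0.064), both uncalled. The mean over probe sets turned Dsg2 (0.005) and ended the calls of Macf1 and Klf5 (0.176). It also moved the called changes of Plec (0.747), Cdh5 (0.301), Vcl (0.385), Cgnl1 (0.345), Cgn (-0.274), Cldn1 (-0.951) and Dsp (0.397).

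With 1 array left out, member genes called higher were 1 to 2 and lower 1 to 1, and member probe sets called higher 1 to 3 and lower 1 to 1. The lower counts came without senescent replicate 1 or 2 for genes, and for probe sets without proliferating replicate 2 or senescent replicate 1 (1 each) and without proliferating replicate 1 or senescent replicate 2 or 3 (2 each). Over these settings the uncalled members Pkp3 (-0.102 to 0.024), Pkp4 (-0.024 to 0.027) and Dsg2 (-0.101 to 0.104) took both signs. The cause was not tested.

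The replicate numbers showed no sign of pairing the arrays, though 3 arrays per group cannot exclude it. Deviations of same-numbered arrays correlated at 0.094, -0.068 and -0.153, and proliferating replicate 2 correlated best with senescent replicate 3 (0.241). With the replicate number as a block, 2 member probe sets rose in place of 4 and 2935 genes were called in place of 3645. The brightest Dsp probe set (adjusted p = 0.0619 in the limma fit over probe sets), the second Pkp2 probe set (0.0587), Vcl and Lor lost their calls. At the 99th percentile of the olfactory receptor probe sets 7 member genes lay above background in place of 8.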
